A study of Mus musculus with 249 samples.

Results

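Shh (ENSMUSG00000002633.3, chr5:28783355-28793641 on the minus strand of mm9) and its distal limb enhancer inside Lmbr1 (ENSMUSG00000010721.8, chr5:29556354-29704930, minus strand) were examined in windows of 40 kb. The interval ran from chr5:27520001 to 31000000 and held 87 of the 68162 windows of the table. Its limits were set by gene position. The start of Shh lies in the window chr5:28760001-28800000, called the Shh window here. The position given for the enhancer, about 29.64 Mb, is approximate and falls on the edge between windows. The window that starts there, chr5:29640001-29680000, is called the limb enhancer window and is 22 windows or 880 kb away. That position lies in intron 5 (chr5:29619490-29650341) of Lmbr1-201, a transcript with 17 exons. Because it is approximate and sits on a window edge, the window just before it (chr5:29600001-29640000) was also examined. Which of these windows holds the enhancer was not settled here. A window of 40 kb holds much more than the enhancer, so each value belongs to the window and not to the element.

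Shh encodes Sonic hedgehog, a secreted signal that binds the receptor Patched, which frees Smoothened to activate the Gli transcription factors. In the posterior margin of the limb bud, Shh is switched on by an enhancer known as the ZRS, which lies in an intron of the otherwise unrelated gene Lmbr1, across a long stretch with few genes. Embryonic stem cells have no limb identity, so the values describe how the locus lay in cells in which this enhancer is not known to act.

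The cells were 46C, a line of mouse embryonic stem cells (strain 129/Ola) derived from E14tg2a that carries GFP at Sox1, and they were measured by multiplex-GAM. In GAM, thin cryosections are cut through fixed cells, slices of nuclei (nuclear profiles) are microdissected, and their DNA is amplified and sequenced, so that loci close in space turn up in the same tube more often. The titles give 4 profiles for each tube, whereas the series description gives a lower average number of nuclear profiles per library. The 249 libraries came from 11 experiments with 20 arms, and all were of the same cell line. Reagent volumes of the amplification were varied in protocols A (10 libraries), B (11) and C (10), and proteinase K in volumes titled 1 ul (5) and 2 ul (6). Freezing was varied after the incubation (10 frozen, 11 unfrozen) and as early (12) against late (11) freezing. Amplification was run for 20 (4), 23 (5) or 25 cycles (3), cresyl violet staining (16) was set against none (10), and a large kit (11) against a small one (12). The other libraries were the full collection (54) and those titled unstained from the propidium iodide (20), eosin (18) and SYBR Gold (10) experiments. The titles of the propidium iodide experiment name both staining and freezing, and do not say whether these libraries were frozen. The deposited table records only whether a window was called positive in a library. The sequencing depth behind a call is therefore unknown, and a negative call cannot be split into absence of the DNA and too few reads. Between 3.40% and 45.2% of all windows were positive in a library (mean 18.2%, SD 7.69). The study describes the collection as coming from a biological replicate separate from its earlier data, and the labels name no separate cultures within it, so every error given here measures only the spread between these libraries.

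Letters of the kind found at the core of the motif bound by CTCF, a protein often found at domain borders, were located in the genome, because the results below turn on borders and on the ends of the Shh to enhancer stretch. The search used CCNCNAGNGGGC on both strands, and 658 of 3696 chromosome 5 windows (17.8%) held a match, against 13 of the 87 windows of the interval (14.9%) with 16 matches. The Shh window held 1, between annotated genes and on the 3′ side of Shh, and the limb enhancer window held none. Of the 18 windows between the one with Shh and the one with the start of Rnf32, 1 held a match. None of the border windows of the interval, described below, held a match. Over chromosome 5, 37 of 165 border windows (22.4%) did, and the difference from all windows was not tested. The sequences at the Shh window, in Lmbr1 and at its telomeric end, in Nom1, and in Dpp6 just beside the deepest border are given 5′ to 3′ on the strand of the match (mm9), with the matched letters in capitals:
Shh window, chr5:28777906-28777927, plus strand, between genes: catggCCACCAGAGGGCgctcg
Lmbr1 intron, chr5:29574857-29574878, plus strand: atgctCCACTAGAGGGCccaag
exon of 4632411P08Rik beyond Lmbr1, chr5:29716098-29716119, plus strand: gagcaCCGCTAGGGGGCgcgag
Nom1 intron, chr5:29768447-29768468, minus strand: ttctgCCTCCAGAGGGCtgggc
Dpp6 intron, chr5:28021224-28021245, minus strand: tccagCCCCAAGTGGGCcatat
Dpp6 intron, chr5:28031756-28031777, plus strand: ggaggCCACAAGAGGGCactgg
A match is a description of the letters and not a site or a cause, and the absence of one says only that these letters are not in that window.

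The Shh window was positive in 48 of 249 libraries and the limb enhancer window in 51, close to the chromosome 5 median of 50. Across the interval, windows were positive in 37 to 66 libraries (median 51, mean 50.5 ± 6.37, SD over 87 windows). All 87 windows passed the minimum of 25 positive libraries used for linkage, so no window of the interval was lost. The gene-poor stretch between Shh and Rnf32, 18 windows or 720 kb long, had 38 to 54 positive libraries (median 45.5) and the remaining windows 37 to 66 (median 53). The ranges overlapped, and the difference was not tested. Its median GC content was 43.8%, the same to this precision as that of the remaining windows (43.8%). The highest count, 66, was at the window with the start of Ube3c, which encodes a ubiquitin ligase. The lowest count of 37 lay inside Dpp6, which encodes a partner of potassium channels.

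**Figure D1:**
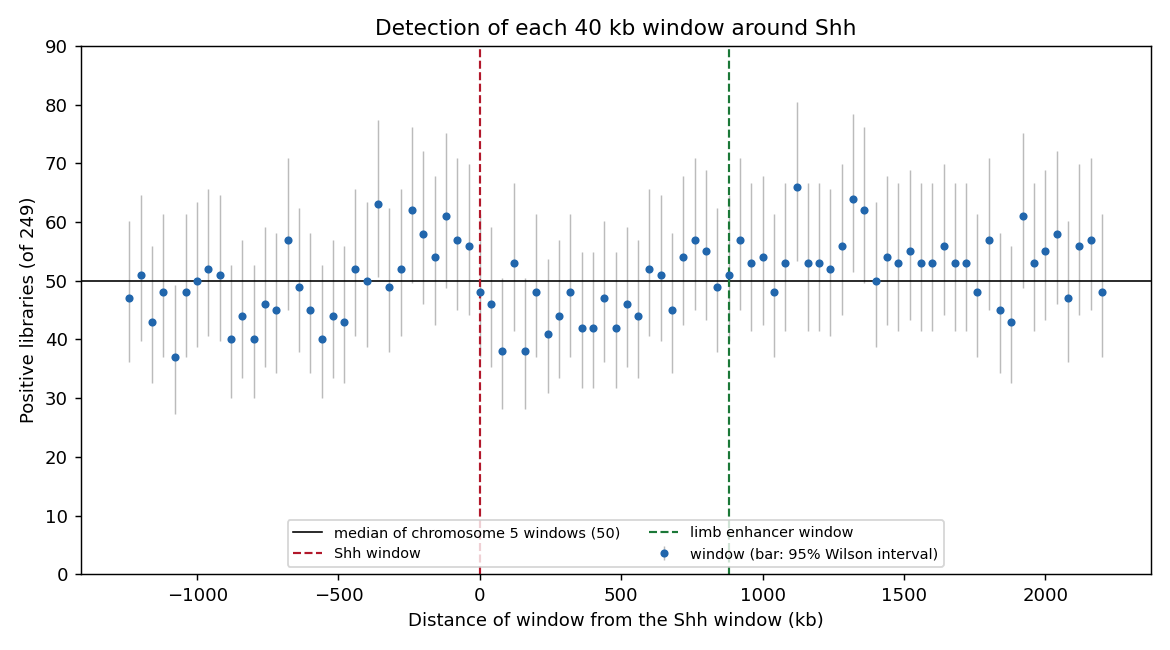
Number of the 249 libraries in which each 40 kb window was positive (points, with 95% Wilson intervals covering counting error only) against distance from the Shh window in kb. The Shh window (48) and the limb enhancer window (51) lie near the chromosome 5 median of 50, and the gene-poor stretch that follows Shh has a median of 45.5, within the range of the remaining windows.

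A single library covered 0 to 92.0% of the interval, with a median of 12.6%, and 60 libraries held none of its windows. The mean was 20.3% (SD 22.7, n = 249), and 19.2% for the rest of chromosome 5. The paired difference of 1.04 percentage points (SE 1.13) was smaller than its own error, so no difference in detection from the rest of the chromosome was found.

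Both the Shh and the limb enhancer window were present in 29 libraries. Shh alone was present in 19, the enhancer window alone in 22 and neither in 179. If both had been placed independently, 9.83 libraries would hold both. Put another way, the enhancer window was present in 60.4% of the 48 libraries with Shh (95% Wilson interval 46.3 to 73.0) and in 10.9% of the 201 libraries without it (7.34 to 16.0). The odds ratio was 12.4 (two-sided Fisher's exact test, p = 3.75e-12, Benjamini-Hochberg adjusted p = 8.63e-11 over 347307 chromosome 5 pairs up to 4 Mb apart). This call says little about Shh in particular. Of the 3517 chromosome 5 pairs the same 880 kb apart, 97.4% were called by the same rule, and 82.8% of all pairs up to 4 Mb.

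The question of interest is therefore whether Shh and the enhancer window were linked more than other windows at that distance. Normalized linkage D′ is the share of libraries with both windows minus the product of their detection frequencies, divided by the largest size this difference can take, so that 0 is independence and 1 the maximum. D′ was 0.502 (SE 0.0830, delete-1 jackknife over 249 libraries) for Shh and the limb enhancer window. The 3517 pairs of equal distance ranged from 0.0173 to 0.703 with a mean of 0.330 (SD 0.0933), and 119 of them (3.38%) were higher. The pair thus stood 1.84 SD above the mean, and its level was between the chromosome 5 means at 120 kb (0.521) and at 160 kb (0.499). The excess over the mean was 0.172 (95% jackknife interval 0.0100 to 0.333). The lower bound was near 0. Without the kit size experiment the excess was 0.137 (-0.0353 to 0.309) and without the freezing after incubation experiment 0.144 (-0.0269 to 0.315). It was 0.154 without cresyl violet (-0.0230 to 0.330) and 0.197 without the full collection (-0.0271 to 0.421). In these 4 cases the interval included 0. Without the full collection the excess was higher and its error wider (SE 0.114 against 0.0825 with all libraries). Without PCR cycles the excess was 0.163, with a lower bound of 1.75e-05.

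**Figure D2:**
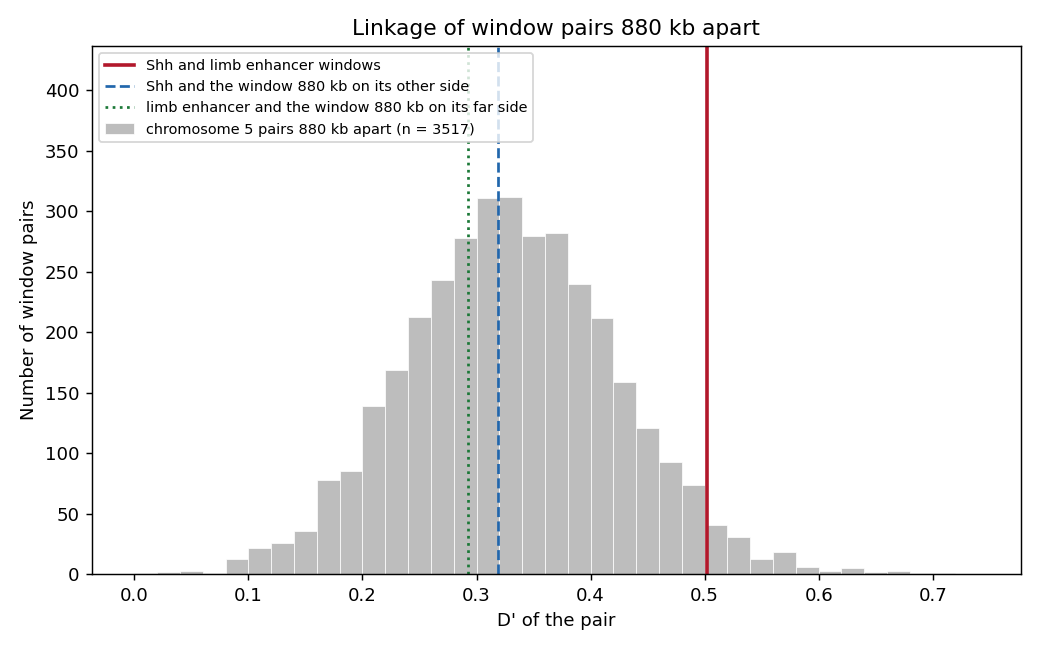
Distribution of D′ over the 3517 pairs of chromosome 5 windows 880 kb apart (bars, number of pairs). The Shh and limb enhancer pair (0.502) lies in the upper tail, while Shh with the window 880 kb on its other side (0.319) and the enhancer window with the window 880 kb on its far side (0.293) lie near the mean of 0.330.

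The neighbouring windows gave the same direction with a narrower error. They are no separate support, since the block includes the pair itself and adjacent windows share most of their libraries. Over the 3 by 3 block of windows around the pair, each compared with its own distance, the mean excess was 0.172 (SE 0.0491, 95% interval 0.0755 to 0.268). Shh with the window just before the enhancer position reached a D′ of 0.611, in 33 shared libraries, against a mean of 0.336 at 840 kb (excess 0.275, 95% interval 0.121 to 0.429, z-score 2.98). The highest of the 9 pairs joined the window next to Shh (chr5:28800001-28840000) with that same window in Lmbr1, at a D′ of 0.675 and a z-score of 3.67. All 9 pairs lay above the mean of their distance. The lowest, with a z-score of 0.46, joined the enhancer window to chr5:28720001-28760000, which overlaps Rbm33, on the other side of Shh.

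Lmbr1, a gene for a membrane protein that carries the enhancer, overlaps 5 windows. Their z-scores with Shh were 0.90, 2.25, 2.98, 1.84 and 0.87 from the 3′ end to the start of the gene, so that linkage was highest in the middle of the gene and lower at both ends. These 5 windows were positive in 49 to 57 libraries. The pattern has no test of its own, since adjacent windows share most of their libraries.

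**Figure D3:**
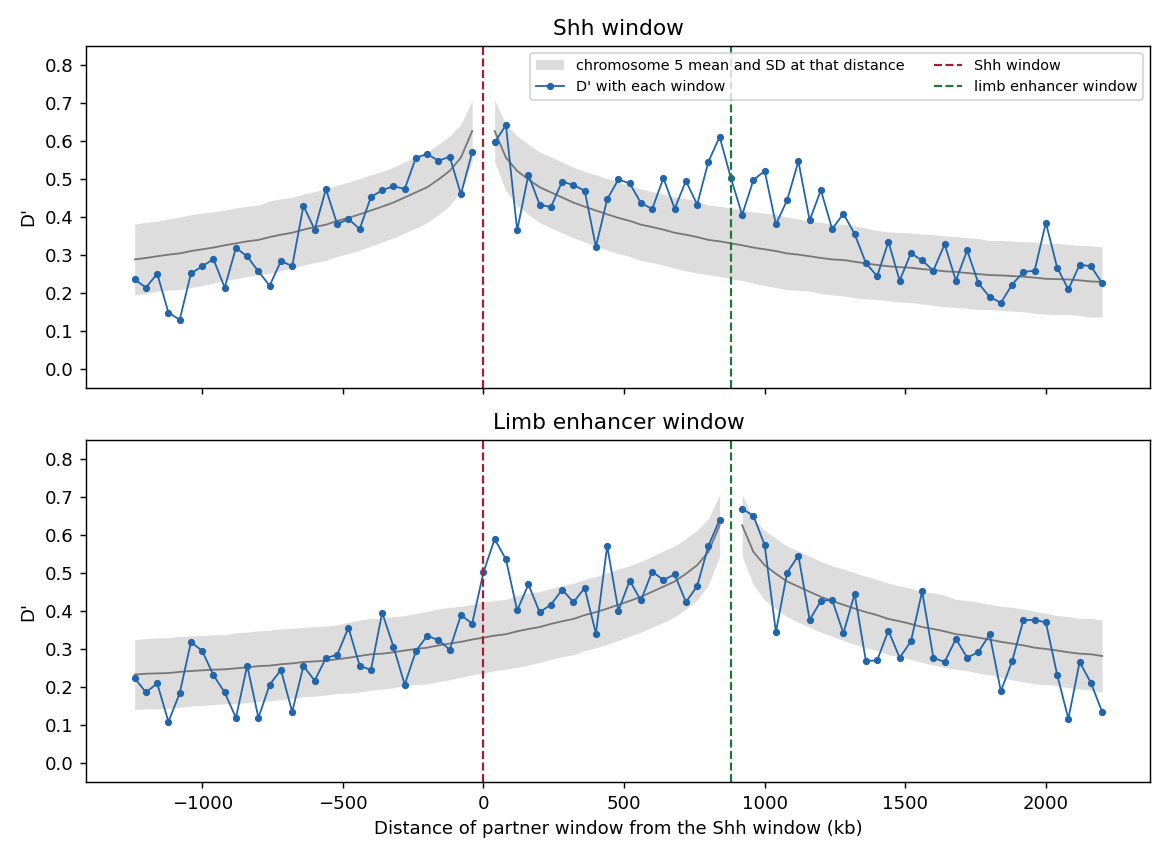
D′ of the Shh window (top) and of the limb enhancer window (bottom) with each window of the interval, against distance from the Shh window in kb. Grey lines and bands give the chromosome 5 mean and SD at the same distance. Shh lies above the mean over 24 windows in a row around Lmbr1, and the enhancer window reaches its highest z-score (2.75) at the window next to Shh.

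Seen from Shh, linkage lay above the mean of its distance in a run of 24 adjacent windows, from chr5:29200001 to 30160000, with a median z-score of 1.06 and a highest of 2.98. The run began within the gene-poor stretch and went on past Lmbr1, Nom1, Mnx1 and Ube3c to Dnajb6. At 200 kb or more, the 5 windows with the highest z-scores were chr5:29600001-29640000 in Lmbr1 (2.98), chr5:29880001-29920000 with the start of Ube3c (2.62), chr5:29560001-29600000 in Lmbr1 (2.25), chr5:29760001-29800000 with Nom1 and part of Mnx1 (2.16) and chr5:29960001-30000000 in Ube3c (1.91). All 5 lay on the enhancer side, and the enhancer window itself was not among them. On the other side of Shh, 10 of 31 windows lay above the mean (median z-score -0.41).

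Seen from the limb enhancer window, the 5 best windows at 200 kb or more lay toward Shh. They were chr5:28800001-28840000 next to Shh (2.75), chr5:28840001-28880000 with Gm10290 (2.15), the Shh window (1.84), chr5:29200001-29240000 in the gene-poor stretch (1.75) and chr5:28920001-28960000 (1.24). The Shh window was thus 1 of several, and the 2 windows beside it on the enhancer side scored higher. Beyond the enhancer, 12 of 33 windows lay above the mean, with a median z-score of -0.41.

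**Figure D4:**
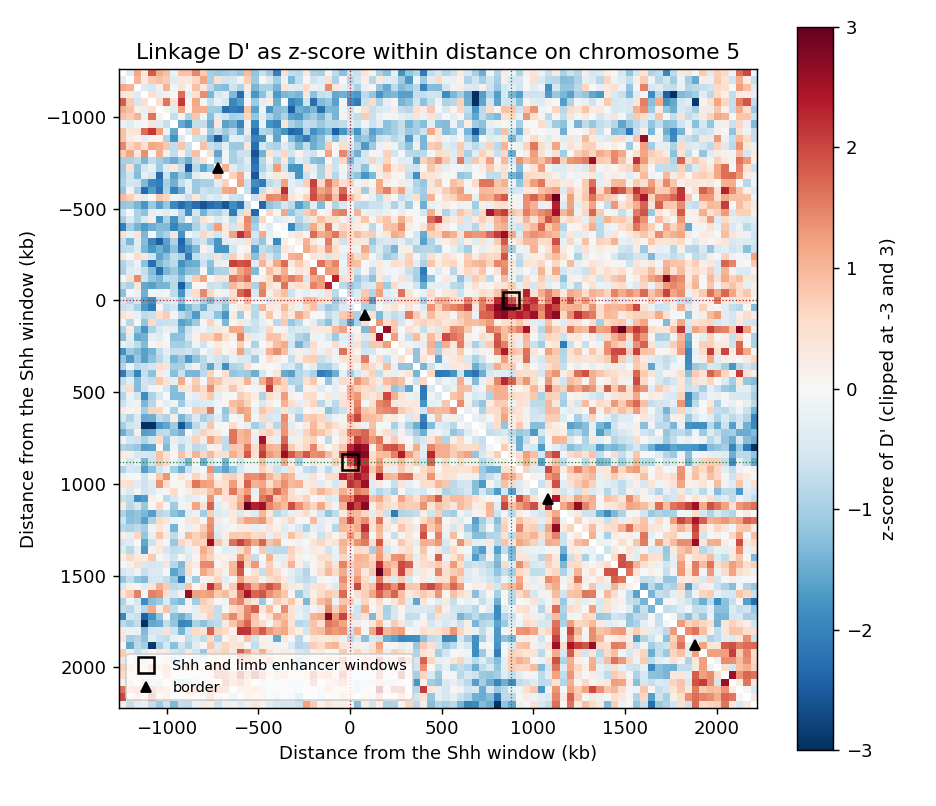
z-scores of D′ within each distance on chromosome 5 for all pairs of the 87 windows, both axes in kb from the Shh window. The square marks the Shh and limb enhancer pair (1.84), triangles the 4 borders. Red cells beside the square join Shh and the windows next to it to Lmbr1, and blue cells are common across the border 720 kb away on the other side of Shh.

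Was Shh linked more to the enhancer side than to its other side? The window 880 kb on the other side (chr5:27880001-27920000, in Dpp6) shared 18 libraries with Shh and had a D′ of 0.319. The pair with the enhancer was 0.184 higher, but the error of that difference (SE 0.131, 95% interval -0.0729 to 0.440) left 0 within reach. Averaged over 21 windows on each side, from 80 to 880 kb, D′ was 0.474 (SE 0.0481) toward the enhancer and 0.411 (SE 0.0465) away from it. The difference was 0.0629 (95% interval -0.0331 to 0.159). Seen from the enhancer window, D′ was 0.468 toward Shh and 0.382 outward, a difference of 0.0860 (-0.0262 to 0.198). Both 95% intervals included 0, and both reach to values larger than 0.15.

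The stretch from Shh to the enhancer as a block was also close to the chromosome. Over its 231 pairs at least 2 windows apart, D′ averaged 0.480 against 0.445 at the same distances on chromosome 5, an excess of 0.0354 (SE 0.0312, 95% interval -0.0258 to 0.0966). Blocks of the same length had an excess of -0.0239 (SE 0.0310) on the other side of Shh and of 0.0246 (SE 0.0298) beyond the enhancer. Pairs across the Shh edge differed from the mean by 0.0015 and pairs across the enhancer edge by 0.0225, both within 1 SE. The largest difference of the block from another was 0.0593 (95% interval -0.0126 to 0.131), against the block on the other side of Shh. In this measure the stretch between Shh and its enhancer could not be told from its surroundings.

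The windows between Shh and the enhancer were often present where both ends were. In the 29 libraries with both, 4 to 21 of the 21 intervening windows were positive, with a median of 15. Libraries with Shh alone had 0 to 19 (median 7) and those with the enhancer alone 0 to 18 (median 5.5). Of the 179 libraries with neither, 124 had none. Among the 29 libraries, an intervening window was present in 13 to 26 (median 20), each of the nearest 22 windows on the other side of Shh in 9 to 21 (median 16) and each of the nearest 22 beyond the enhancer in 13 to 23 (median 17). These counts leave out the windows of the interval farther away. No library held both ends with no window between them, and 1 held all 21. A slice that takes in both ends along a connected stretch and one that takes in a loop give the same calls at both ends. These were not told apart.

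**Figure D5:**
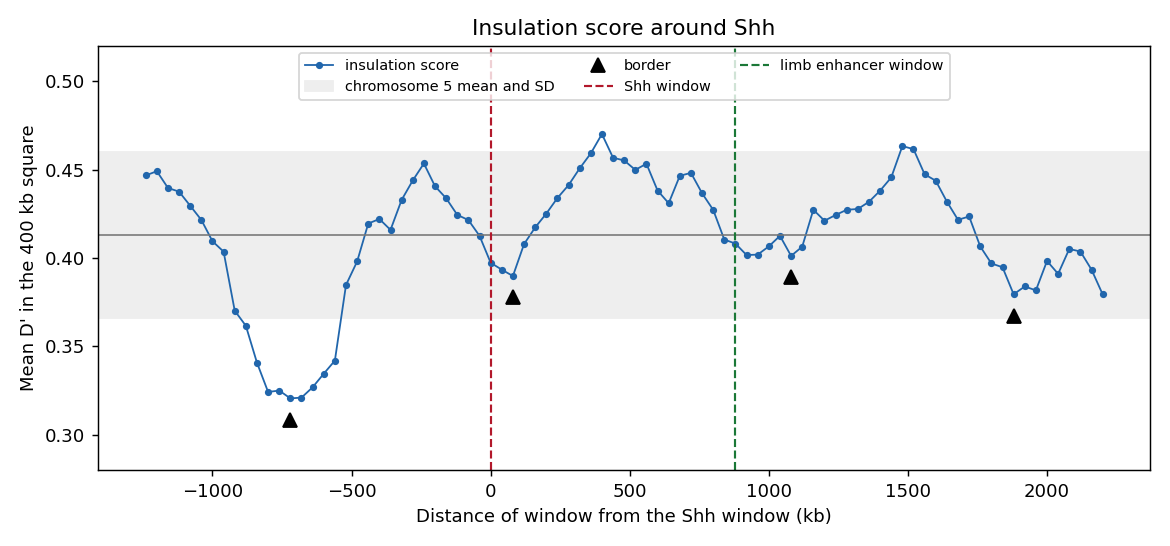
Insulation score, the mean D′ across a square of 400 kb around each window, against distance from the Shh window in kb, with the chromosome 5 mean and SD in grey and borders as triangles. The deepest border (0.321) lies 720 kb from Shh in Dpp6 and Paxip1, and a shallow one (0.390) lies 80 kb from Shh on the enhancer side.

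Domain borders were taken as local minima of the insulation score, which is the mean D′ between the 400 kb on either side of a window, with a prominence of at least 0.5 SD. The interval held 4 of the 165 borders of chromosome 5, where 4.01 would fall at the rate of the chromosome. The deepest, at chr5:28040001-28080000, overlaps Dpp6 and Paxip1, which encodes a component of histone methyltransferase complexes. Its score was 0.321 and its prominence 4.40 SD, the 9th highest of the 165, and it lay 0.133 below the peak that follows it, a sign that taking a minimum and a peak fixes. It was found within 80 kb in each of 11 analyses that left out 1 experiment and under each of 7 other settings. Between it and the next border lie the starts of Paxip1, the serotonin receptor gene Htr5a, Insig1, a regulator of sterol synthesis, En2, a homeobox gene of the midbrain and hindbrain, Cnpy1, Rbm33 and Shh.

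A second, shallow border lay close to Shh itself. It was at chr5:28840001-28880000, which holds Gm10290, 80 kb from the Shh window on the enhancer side, with a score of 0.390 and a prominence of 1.35 SD, 77th of 165. The score rose to 0.454 on one side and to 0.470 on the other, where chr5:29160001-29200000 had the highest score of the interval. The steps were -0.0636 (95% interval -0.127 to -0.000541) and -0.0803 (-0.157 to -0.00324), both just beyond their error, for a window chosen as a minimum. It was the only border between the Shh and limb enhancer windows at the main setting, and was found within 80 kb in 11 of 11 analyses without 1 experiment and under 6 of 7 other settings. Of all chromosome 5 windows, 22.9% lay within 80 kb of a border, so this nearness is common.

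The border nearest to the enhancer window was less certain. At the main setting it was chr5:29840001-29880000, 200 kb beyond the enhancer between Mnx1, a homeobox gene of motor neurons, and Ube3c, with a score of 0.401 and a prominence of 1.32 SD. Neither of its steps was beyond the error, and it was found within 80 kb in 5 of 11 analyses without 1 experiment. In the other 6 the nearest border lay 40 kb from the enhancer window. At 200 kb, 49.6% of chromosome 5 windows lie as near to a border. The fourth border, at chr5:30640001-30680000 in Ccdc164 and Otof, had a prominence of 0.545 SD, 157th of 165, and was found again in 7 of 11.

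The interval holds the starts of 35 protein-coding genes in 27 windows. Against Shh, 17 of 26 other start windows lay above the mean of their distance (median z-score 0.42, range -0.94 to 2.62), beside 50 of the 86 other windows of the interval (58.1%). Against the limb enhancer window it was 9 of 27 (median -0.44, range -1.87 to 2.15), beside 41 of 86 windows (47.7%). The excess over the mean had a 95% interval that excluded 0, with no adjustment over these windows, in 2 cases for Shh and 3 for the enhancer window. The same held for 8 and 5 of the 86 other windows of the interval, and for 7.16% of all chromosome 5 pairs up to 2200 kb apart, so these counts are read as values of single pairs only. For Shh these were Ube3c, at 0.246 (0.0754 to 0.416), and Nom1, whose product acts in the nucleolus, at 0.206 (0.0440 to 0.369). For the enhancer window they were Shh at 0.172, Gm10290 at 0.197 (0.0113 to 0.383) and Cib4, which was lower than the mean.

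D′ was also read at other genes of the neighbourhood. D′ of Shh with the start of En2, 280 kb away, was 0.473 against a mean of 0.451, and with Mnx1 0.381 against 0.310. The enhancer window had a D′ of 0.345 with Mnx1, 160 kb away, where the mean was 0.499 (excess -0.154, 95% interval -0.315 to 0.00791). With the start of Lmbr1, its host gene, it was 0.669 against 0.626 at 40 kb. Rnf32, at the far end of the gene-poor stretch, differed from the mean of its distance by -0.0552 with the enhancer window (95% interval -0.216 to 0.106).

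Detection of both windows was compared over the 11 experiments named in the titles. Shh was positive in 8.33% to 36.4% of the libraries of an experiment, lowest for PCR cycles (1 of 12) and highest for proteinase K (4 of 11). The enhancer window was positive in 0% to 38.7%, lowest for eosin (0 of 18) and highest for reagent volume (12 of 31). No difference between experiments was detected (permutation test of the chi-square, 100000 resamples, p = 0.546 for Shh and 0.223 for the enhancer window). The share of libraries with both among the 70 with either also did not differ detectably (permutation p = 0.421, adjusted p = 0.546 for each of the 3 tests). More libraries held both windows than independence gives in 10 of 11 experiments, for example 4 against 0.870 for kit size, and 4 against 1.63 in the full collection. In early freezing, PCR cycles and SYBR Gold this rested on 1 library each. Of chromosome 5 pairs at this distance, 97.4% were called over all libraries, so the count says little about Shh in particular. Other pairs were not counted by experiment. The eosin experiment, with no positive enhancer window, could not show an excess.

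Differences between protocols were not detected at the locus. Among 11 contrasts of arms within an experiment, none reached an unadjusted p under 0.05 for the percent of interval windows positive. By means, the largest gap among arms of at least 10 libraries was between kits. The large kit gave 0 to 35.6% (median 4.60%, mean 8.88%, n = 11) and the small kit 0 to 52.9% (median 12.1%, mean 21.4%, n = 12), so the ranges overlapped widely. The difference of means was -12.5 percentage points (two-sided permutation test, p = 0.115, adjusted p = 1.0). It was -7.47 by medians and -6.17 after subtracting the percent positive in the other windows of chromosome 5. Shh was positive in 2 of 11 and 3 of 12 of these libraries, and the enhancer window in 2 of each. For single windows, 0 of 564 tests in the interval were called at an adjusted p under 0.05 (Fisher's exact test, Benjamini-Hochberg over all windows of a contrast), where 0.0% of windows were called in any contrast of the whole table. At an unadjusted p under 0.05 there were 6, or 1.06%, against 2.59% of all windows tested. The proteinase K and PCR arms held 3 to 6 libraries, which limits what these contrasts could detect. For 20 minus 25 cycles, 0 windows of the interval had enough positive libraries to be tested singly. There were 1 for 20 minus 23 cycles, 4 for 23 minus 25 cycles and 7 for proteinase K. The absence of single-window calls in these contrasts therefore says little about the locus.

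Windows of a list of hedgehog pathway genes, which is not complete, were set beside that of Shh. Of 18 listed genes, 17 were matched in the annotation, Shh included, and the windows of their starts were positive in 43 to 71 libraries (median 54), 10 of them above the autosomal median of 50. Among the ligands, Ihh was positive in 47 and Dhh in 61 libraries, beside 48 for Shh. The receptor gene Ptch1 had the highest count with 71, and Hhip, which encodes a binding protein that limits the signal, the lowest with 43. The signal transducer Smo was positive in 58 and the transcription factor genes Gli1, Gli2 and Gli3 in 54, 53 and 48. D′ of Shh with the 16 genes on other chromosomes had a median of 0.0449 and was lowest for Cdon (-0.150), and each lay below the 0.502 of the enhancer window. None of these windows was called in a contrast of arms.

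Over 57820 windows of other autosomes, the presence of Shh across libraries was most like that of chr3:75560001-75600000 (phi 0.334, 21 shared libraries), chr9:47800001-47840000 (0.311, 23) and chr12:15800001-15840000 in Trib2 (0.307, 22). The median phi was 0.0435, and the phi of Shh with the limb enhancer window was 0.484. No window of another chromosome was called with Shh (Fisher's exact test, lowest adjusted p = 0.0838), although 5274, or 9.12%, had an unadjusted p under 0.05. All of these values share the libraries and their coverage. With the limb enhancer window, 1 of the 57820 windows was called, which is 0.00173% of those tested. It was chr4:91960001-92000000, which overlaps no protein-coding gene, with a phi of 0.357 and 20 shared libraries (Fisher's exact test, adjusted p = 0.0213), beside 4028 windows at an unadjusted p under 0.05.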

How the data were processed

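Per the methods, the authors aligned reads to mm9 with Bowtie2 (version 2.1 in the submitters' processing notes), removed duplicates with Samtools and called each 40 kb window positive with GAMtools, with the read threshold set to 4. These calls were deposited as 1 or 0 for libraries that passed their quality control. The table has no read counts, so no depth, and fewer reads in a library can turn a present window negative. All columns were matched to titles, 0 were left over and 0 libraries were identical. Titles and protocol text differ for the SYBR Gold and proteinase K libraries, and titles were followed. The interval, the enhancer position and all lists were chosen with earlier results of these data known.

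D′, insulation scores and tests were computed with Python 3.11.15, NumPy 2.4.6, SciPy 1.17.1 and pandas 2.3.3, from windows positive in at least 25 libraries, and checked on simulated data with planted answers. z-scores use all chromosome 5 pairs of 1 distance. Errors are delete-1 jackknife standard errors over libraries, with 95% normal intervals. Single windows were tested where at least 3 of the compared libraries were positive. Arms of fewer than 10 libraries were compared by exact enumeration. Genes named are Shh, Lmbr1, genes starting in the interval, genes at borders, the top 5 partners of both windows, the hedgehog list (1 gene of which is not reported here by itself) and the 3 windows of other chromosomes most like Shh. Genes and sequences come from GENCODE vM1 and the NCBIM37 genome, which is mm9.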

Additional observations from a re-analysis of the deposited data

How the results depend on the processing

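The linkage excess of the Shh and limb enhancer pair kept its sign under all 18 alternatives. It was 0.165 against all autosomes and 0.275 with the window before the enhancer position, and from 0.137 to 0.212 when 1 experiment was left out, where 4 of 11 intervals reached 0. The enhancer side against the other side of Shh, the interval between Shh and the enhancer against equal distances, and the co-segregation test of the pair kept direction and side of the threshold. Further linkage comparisons were not recomputed. The tests of detection across experiments kept their side of the threshold. The count of borders was 6 with a square of 240 kb and 2 with 600 kb. The border nearest to Shh lay at 0 kb with a square of 240 kb, at 760 kb with 600 kb and at 40 kb with single-window gaps filled, and at 40 to 80 kb without 1 experiment. That nearest to the enhancer window lay at 40 kb with squares of 240 and 320 kb, at 360 kb with 600 kb and at 40 to 200 kb without 1 experiment. The cause was not tested. No contrast of arms was called under any alternative (lowest adjusted p 0.786). By medians the sign turned for protocol A minus C (8.62 points), frozen after incubation minus unfrozen (-14.9) and cresyl violet minus unstained (-4.60). Relative to the rest of chromosome 5 it turned for protocol A minus C (1.12) and early minus late freezing (-6.44). Without 1 library, 20 minus 25 cycles ranged from -14.1 to 0.287 and 23 minus 25 cycles from -4.37 to 10.0. No paired analysis was possible because replicate numbers only name libraries. Depth limits are unknown, since no read counts were used.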
